A study of Mus musculus with 6 samples.

Results

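Polycomb repressive complex 2 (PRC2) places methyl groups on lysine 27 of histone H3, a mark of genes held silent during development. The complex is built on a small core. Ezh2 or its paralogue Ezh1 carries the methyltransferase domain, Suz12 and Eed bind the enzyme and are needed for its activity, and Rbbp4 or Rbbp7 is a histone-binding subunit that also serves in other chromatin complexes. In the developing nervous system Ezh2 is known as the enzyme of dividing progenitors, whereas Ezh1 persists in cells that have left the cell cycle. The transcripts of these 6 genes were followed here in mouse neural progenitor cells (NPCs) with and without Ybx1, a cold-shock domain protein that binds DNA and RNA. The genes were taken by name, and all 6 were found among the 51733 gene symbols in the tables.

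The control libraries are wildtype C57BL/6 NPCs (n = 3), and the Ybx1-KO libraries come from sibling embryos that carry the Ybx1 null allele in every cell (n = 3). Cells were dissociated from neural tubes of embryos at E13.5 and sorted as Sox2-positive, and stranded libraries of total RNA were sequenced. The sort used a Sox2-eGFP reporter allele, so the sorted cells of both groups carry it. The replicates are numbered 1 to 3 within each group here, and equal numbers do not tie libraries across groups. The titles of 2 controls share a first number, as do those of 2 Ybx1-KO libraries, with no word on what it marks. Nothing in the labels says how many embryos entered a library, so the p-values below measure the spread between these libraries.

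The control libraries held between 20841990 and 23883542 counts on genes and the Ybx1-KO libraries 8483075, 13321952 and 4743279. Every pair of libraries differed by more than sampling noise (the lowest chi-square, divided by its degrees of freedom, was 51.1). Ybx1-KO replicate 3 stood apart. Only 7.22% of its tallied read pairs fell on genes, against 18 to 24.7% in the other 5 libraries, and it held 4554 CPM (counts scaled to a common library size) on 1729 olfactory, vomeronasal and taste receptor genes, which are used in sensory cells, against 22.5 to 95.9 CPM elsewhere. Sox2 was present in every library, at 17.2 to 49.8 CPM after TMM normalization (a trimmed mean of log ratios between libraries), as were Nes and Pax6, and the summed level of 11 progenitor markers was 1735 to 1912 CPM in control and 1368 to 2395 CPM in Ybx1-KO NPCs. Markers of other cells were counted as well. The 13 neuron markers summed to 3565 to 6394 CPM in control and 2081 to 5032 CPM in Ybx1-KO NPCs, the 8 erythroid markers to 472 to 1152 and 161 to 938 CPM, and the 8 mesenchyme markers to 136 to 874 and 78.6 to 132 CPM. The 4 endothelium markers summed to 19.1 to 44.2 CPM in control and 10.5 to 38.8 CPM in Ybx1-KO NPCs, and the 4 microglia markers to 7.33 to 23.3 and 3.35 to 21.5 CPM. No marker of these lists was at 0 in all 6 libraries, and of the sums the mesenchyme ones alone lay apart between the groups, at the margin of 136 against 132 CPM. Single markers also lay apart, 2 of 11 for progenitors, 2 of 13 for neurons and 1 of 8 for mesenchyme. The erythroid, endothelium and microglia lists held 0 such markers. Of all genes tested below, 13.2% lay apart in either direction. Nes was higher in Ybx1-KO NPCs (52.6 to 129 CPM in control, 165 to 283 CPM in Ybx1-KO). Slc1a3 was lower (36.4 to 91.8 and 14.3 to 23.5 CPM), as were the neuron markers Snap25 (111 to 167 and 50.8 to 79.7 CPM) and Syt1 (57.1 to 81.8 and 39.5 to 49.9 CPM). The mesenchyme marker Lum was lower too (6.13 to 49.9 and 2.38 to 4.35 CPM). The part of the cell types in the results below was not tested.

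Ybx1, on chromosome 4, was examined first, as the deleted gene. It measured 235, 523 and 301 CPM in controls 1 to 3 against 124, 54.5 and 9.51 CPM in Ybx1-KO replicates 1 to 3. The groups did not overlap and Ybx1-KO was the lower one, as the labels state, but replicate 1 still held 35.2% of the control mean and replicate 3 held 2.70%. On the log2 scale the fitted difference was -2.49, with a standard error of 0.675 and an edgeR adjusted p of 0.302 (quasi-likelihood fit, Benjamini-Hochberg adjusted over all genes).

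The promoters of the 6 genes are shown because Ybx1 takes its name from the Y-box, a sequence that contains an inverted CCAAT box, and because E2F sites are known from genes of dividing cells. Windows from 250 bases before to 50 after the RefSeq start (GRCm38.p6) were found for all 6 genes. CCAAT and its reverse complement ATTGG were searched on both strands, as were the E2F letters TTTGGCGC, TTTCGCGC and TTTCCCGC. A match is only a match of letters. The longer consensus that the paper names for Ybx1, CTGATTGG, was not searched over the windows, so its share among all windows is not known. Its letters do appear in the Ezh2 match at 47595106-47595130. They also appear, as the reverse complement CCAATCAG, at the CCAAT box of Suz12. Binding of Ybx1 to any of these letters was not tested, and a CCAAT box here is not taken as a Ybx1 site. The window of Ezh2 held 3 CCAAT boxes and that of Ezh1 held 0. Of 27025 RefSeq windows of this length, 1 for each gene, 37.9% held at least 1 CCAAT box and 3.56% held 3 or more, and of the 11562 windows of genes tested here 38.6% and 4.96% did. In GENCODE M21 a further Ezh2 transcript begins upstream of this RefSeq start, at 47595341, so all 3 matches lie inside the annotated gene, in an intron of that transcript, and the match closest to the start also lies in an exon of another Ezh2 transcript. The Ezh2 matches are printed with 10 bases on each side, on the strand of the gene and with the motif in capitals:
Ezh2, chr6:47595106-47595130 (minus strand): cggccctctgATTGGacgggcgccc
Ezh2, chr6:47595080-47595104 (minus strand): ctcgcatcctCCAATcggagaggcg
Ezh2, chr6:47595027-47595051 (minus strand): agcgatggcgATTGGgttgctgcgt

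Suz12 held 1 CCAAT box, which begins 61 bases before its start. The 250 bases before the start of Suz12 and of Ezh1 are given in full, to set a member with both motifs beside the member with neither. Capitals mark the CCAAT box and the E2F letters:
Suz12, chr11:79992856-79993105 (plus strand): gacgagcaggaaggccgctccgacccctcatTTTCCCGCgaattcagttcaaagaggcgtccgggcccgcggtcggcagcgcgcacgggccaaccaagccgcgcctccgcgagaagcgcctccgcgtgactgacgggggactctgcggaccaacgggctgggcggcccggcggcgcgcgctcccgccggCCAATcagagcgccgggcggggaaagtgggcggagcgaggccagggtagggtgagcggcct
Ezh1, chr11:101226464-101226713 (minus strand): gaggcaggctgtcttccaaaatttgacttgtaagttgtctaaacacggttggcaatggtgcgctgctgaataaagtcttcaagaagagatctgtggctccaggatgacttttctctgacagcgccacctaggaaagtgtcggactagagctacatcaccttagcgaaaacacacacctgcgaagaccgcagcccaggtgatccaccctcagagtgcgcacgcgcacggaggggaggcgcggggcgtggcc

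The E2F letters were found in Suz12, 219 bases before the start, and in Ezh2, from base 4 after the start, and in none of the other 4 windows. They occurred in 1.91% of all windows and in 3.32% of those of genes tested. Rbbp4 and Rbbp7 each held a CCAAT box shortly before the start, and Rbbp7 held another that begins 1 base before it. The only match of Eed lay after its start. The 2 boxes upstream in the histone-binding subunits are printed with 10 bases on each side:
Rbbp4, chr4:129335382-129335406 (minus strand): gcgctttctcATTGGtcggtgttgg
Rbbp7, chrX:162760307-162760331 (plus strand): gtcgcacgctATTGGtccaagccgc

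To compare levels between genes, counts were divided by the union of annotated exons and by the library's total on genes (FPKM). Rbbp7 had the highest mean level in control NPCs, at 29.0 ± 8.54 FPKM (SD, n = 3), and Ezh1 the lowest, at 1.86 ± 0.522 FPKM (SD, n = 3). Ezh2 stood at 21.1 ± 3.07 FPKM (SD, n = 3), Rbbp4 at 17.8 ± 0.838, Suz12 at 16.9 ± 3.03 and Eed at 7.66 ± 0.538. The ranges of neighbours in this order overlapped from Rbbp7 down to Suz12. Suz12 lay above Eed, and Eed above Ezh1, in all 3 control libraries without overlap of the ranges. In Ybx1-KO NPCs the order was Rbbp7 (32.2 ± 11.2 FPKM, SD, n = 3), Rbbp4 (24.7 ± 6.36), Ezh2 (15.7 ± 2.15), Suz12 (12.9 ± 3.17), Eed (7.98 ± 2.35) and Ezh1 (1.70 ± 0.833). Rbbp4 lay below Ezh2 in the control means and above it in every Ybx1-KO library. The order depends on the length used. With the longest protein coding transcript in place of the union of exons, Ezh2 had the highest control mean, at 50.5 FPKM, and Rbbp4 the highest Ybx1-KO mean, at 48.9 FPKM, while Ezh1 stayed last in both groups.

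Ezh2, the main methyltransferase of dividing cells, is on chromosome 6 of GRCm38 from 47530139 to 47595341. It measured 158, 156 and 129 CPM in controls 1 to 3 against 110.3, 121 and 72.6 CPM in Ybx1-KO replicates 1 to 3, from 3354, 3382 and 2589 counts and from 988, 1184 and 519 counts. All 3 Ybx1-KO values were below the lowest control. They stood at 74.6%, 81.8% and 49.1% of the control mean. The means were 148 ± 16.0 CPM (SD, n = 3) and 101 ± 25.4 CPM (SD, n = 3), and a two-sided permutation test over all exact regroupings gave p = 0.1, the floor of this design. The fitted log2 difference of Ezh2 was -0.55 ± 0.395 (SE; edgeR adjusted p = 0.524), a fold of 0.685 with a 95% interval from 0.384 to 1.22. The difference did not pass the test. In bulk RNA of this kind, fewer cells that express a gene and less RNA in each cell cannot be told apart.

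The groups of Ezh2, unlike those of Suz12, also lay apart when counts were scaled by the library total only, with 120.0 to 161 CPM in control and 88.9 to 116 CPM in Ybx1-KO NPCs. Without Ybx1-KO replicate 3, its log2 fold change was -0.38 (edgeR adjusted p = 0.775). The 15 alternatives, limma-voom and DESeq2 among them, gave an adjusted p from 0.381 in DESeq2 to 0.813 in edgeR. Genes of S phase, at which dividing cells copy their DNA, went the other way. The 20 listed genes summed to 787 to 1026 CPM in control and 1109 to 1379 CPM in Ybx1-KO NPCs, and the part of cell division in the level of Ezh2 was not tested.

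Ezh1, the paralogue of Ezh2 on chromosome 11 from 101191115 to 101226463, had few counts. It measured 17, 10.6 and 15.6 CPM in controls 1 to 3 against 17.4, 8.28 and 8.95 CPM in Ybx1-KO replicates 1 to 3. Ybx1-KO replicate 1 was the highest of all 6 libraries and replicate 2 the lowest, so the groups overlapped. The fitted log2 difference of Ezh1 was -0.32 ± 0.469 (SE; edgeR adjusted p = 0.756), and the 95% interval of the fold ran from 0.403 to 1.59. The value of replicate 3 rested on 64 counts. If the receptor genes are taken as a measure of reads that fall evenly on exons, they correspond to 3.78 counts per kilobase in that library, or 28.1 counts over the 7440 bases of Ezh1 exon, which is 43.9% of its count there. In the other 5 libraries the same estimate was below 1% of the Ezh1 count. With this background subtracted, Ezh1 stood at 1.02 FPKM in replicate 3, against 1.81 FPKM before.

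Suz12, the subunit that holds the enzyme and the accessory proteins together, is on chromosome 11 from 79993106 to 80034123. It measured 91.2, 100.6 and 71.3 CPM in controls 1 to 3 against 65.0, 62.7 and 50.5 CPM in Ybx1-KO replicates 1 to 3. All 3 Ybx1-KO values were below the lowest control, by the narrow margin of 6.36 CPM. The means were 87.7 ± 14.9 CPM (SD, n = 3) and 59.4 ± 7.77 CPM (SD, n = 3; p = 0.1, two-sided exact permutation test). The fitted log2 difference of Suz12 was -0.56 ± 0.368 (SE; edgeR adjusted p = 0.490), a fold of 0.677 with a 95% interval from 0.395 to 1.16. Scaled by the library total only, the groups of Suz12 overlapped, because Ybx1-KO replicates 1 and 3 had 68.6 and 76.1 CPM and control replicate 3 had 66.1 CPM.

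Eed, the subunit that reads the methylated histone and stimulates the enzyme, is on chromosome 7 from 89954654 to 89980983. It measured 26.8, 34.5 and 31.8 CPM in controls 1 to 3 against 37.8, 29.9 and 19.7 CPM in Ybx1-KO replicates 1 to 3. Ybx1-KO replicate 1 was above all controls and replicate 3 below all of them. The fitted log2 difference of Eed was -0.087 ± 0.379 (SE; edgeR adjusted p = 0.929), and the 95% interval of the fold, 0.540 to 1.64, leaves room for a difference in either direction. The sign turned without Ybx1-KO replicate 3, to 0.11.

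**Figure D1:**
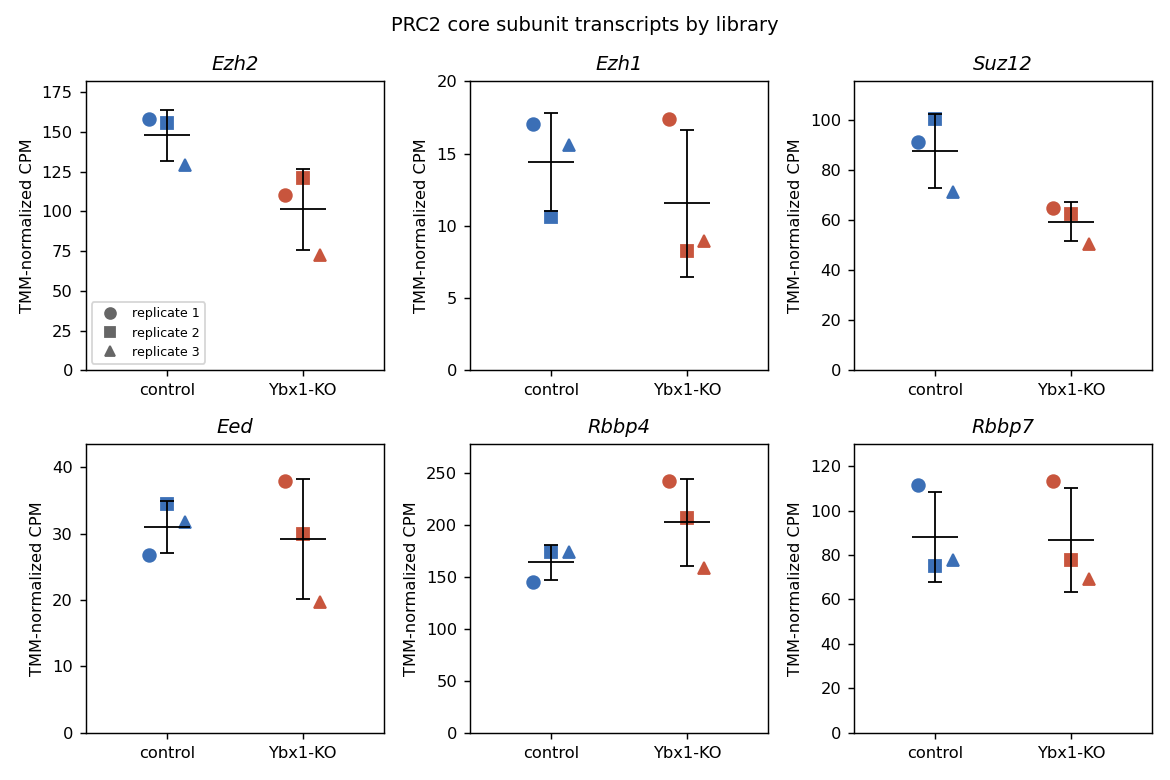
TMM-normalized CPM of the 6 PRC2 core subunit genes, with 1 symbol for each library (circle, square and triangle for replicates 1, 2 and 3) and bars for the mean ± SD of 3 libraries. Ezh2 and Suz12 have all Ybx1-KO libraries below all control libraries, whereas the groups overlap for Ezh1, Eed, Rbbp4 and Rbbp7.

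Rbbp4, a histone chaperone also known as RbAp48, is on chromosome 4 from 129307100 to 129335370. It measured 145, 174 and 174 CPM in controls 1 to 3 against 242, 207 and 159 CPM in Ybx1-KO replicates 1 to 3. Ybx1-KO replicates 1 and 2 lay above all controls and replicate 3 lay below 2 of the 3. Its fitted log2 difference of 0.30 ± 0.405 (SE; edgeR adjusted p = 0.732) was the only positive one of the 6. In this fit it lay close to the median of all genes tested, 0.31. It did not without Ybx1-KO replicate 3, where it was 0.43 against a median of -0.066. With protein coding genes alone it was 0.37 against a median of 0.13. Under 2 other scalings, by upper quartile and by the median of ratios, all Ybx1-KO libraries of Rbbp4 lay above all control libraries. The share of all genes that lay apart under these scalings was not counted. In edgeR with upper quartile scaling the log2 difference of Rbbp4 was 0.35 against a median of 0.38 for all genes tested. With median-of-ratios (RLE) scaling it was 0.38 against 0.40, so it lay close to the median in both.

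Rbbp7, known as RbAp46, is on the X chromosome from 162760402 to 162779092. It measured 111, 75.2 and 77.8 CPM in controls 1 to 3 against 113, 77.8 and 69.4 CPM in Ybx1-KO replicates 1 to 3. Replicate 1 was the highest of each group, and the others lay within 69.4 to 77.8 CPM. The fitted log2 difference of Rbbp7 was -0.022 ± 0.388 (SE; edgeR adjusted p = 0.985), and its sign turned in 9 of 15 alternatives. The sex of the embryos can matter for an X-linked gene. Xist, expressed from the inactive X, measured 734, 3.04 and 479 CPM in controls 1 to 3 against 4.91, 91.6 and 20.3 CPM in Ybx1-KO replicates 1 to 3. The Y-linked Kdm5d had 0.150 CPM in control replicate 3 and 32.0 to 72.6 CPM in the others. Control replicate 1 thus held both Xist and Y-linked transcripts at high levels, and the part of sex in the level of Rbbp7 was not tested.

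All 6 genes had a mean above 1 FPKM in both groups and were tested among 21330 genes. Of these genes 13145 passed the filter in both groups, 951 in control alone and 7234 in Ybx1-KO NPCs alone. The last kind is higher in mean FPKM in Ybx1-KO NPCs through the filter itself. It enters every share and median of all genes tested in this report. Of the 6, 0 passed an adjusted p of 0.05 and a fold change of 1.5 in edgeR's quasi-likelihood test, as did 0% of all genes tested. By limma-voom and by DESeq2 the number was also 0 of the 6, and 0 had an unadjusted p below 0.05, against 11.2% of all genes tested in edgeR (4.27% lower and 6.96% higher in Ybx1-KO NPCs). For 2 of the 6, Ezh2 and Suz12, the groups did not overlap and the Ybx1-KO libraries were the lower ones, against 13.2% of all genes tested without overlap in either direction and 8.17% with Ybx1-KO lower. In FPKM, which is scaled by the library total, this held for Ezh2 alone of the 6, against 5.26% of all genes tested with Ybx1-KO lower. Of the 13694 protein coding genes tested, 1422 lay apart in TMM-normalized CPM with Ybx1-KO lower and 750 with Ybx1-KO higher. Of the 6 genes 5 had a negative log2 fold change, and the median of the 6 was -0.20. The median of all genes tested was 0.31 and that of the protein coding genes tested 0.052. Without Ybx1-KO replicate 3 the median of the 6 was -0.044, with 3 negative, and that of all genes -0.066. The biological coefficient of variation estimated for a gene by edgeR ran from 0.330 for Suz12 to 0.426 for Ezh1, against 0.800 shared by all genes. Of the genes tested, 34.2% had a lower value than Ezh1, 7.87% a lower one than Eed and 1.13% a lower one than Suz12. By this estimate the 6 genes varied less between libraries of a group than most genes tested, and Ezh1 had the highest value of the 6. No comparison with genes of like level was made.

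**Figure D2:**
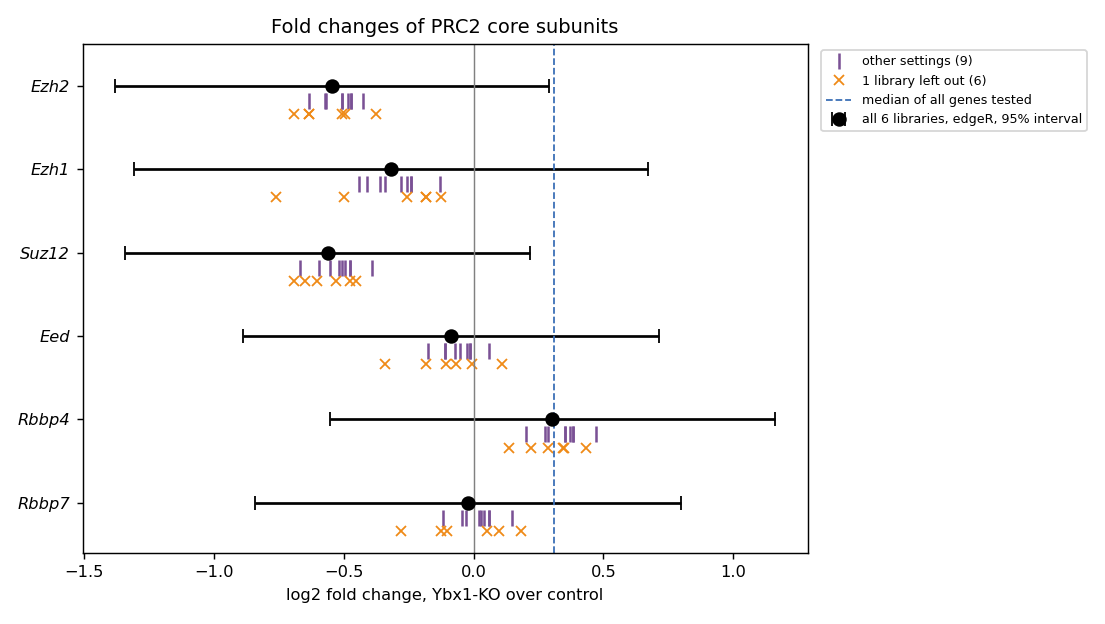
Log2 fold change of Ybx1-KO over control for each subunit, from edgeR on all 6 libraries with its 95% interval (black), under 9 other settings (purple bars) and with each library left out (orange crosses). The dashed line is the median of all genes tested, 0.31. Every interval includes 0, and all alternatives for Ezh2, Ezh1 and Suz12 lie below 0.

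Ratios between subunits were compared next, because a ratio within a library does not depend on how libraries are scaled. The Ezh1 to Ezh2 ratio of FPKM was 0.0966, 0.0610 and 0.108 in the control libraries and 0.142, 0.0614 and 0.111 in the Ybx1-KO libraries. Ezh1 was thus a minor part of the Ezh transcripts in every library. In counts it made up 9.72%, 6.37% and 10.8% of the reads on both genes in control NPCs and 13.6%, 6.40% and 11.0% in Ybx1-KO NPCs. The 95% Wilson interval was 8.81 to 10.7% in control replicate 1 and 8.69 to 13.8% in Ybx1-KO replicate 3, which covers counting error only. The log2 ratio was higher by 0.20 in Ybx1-KO NPCs (standard error 0.438, p = 0.5, two-sided exact permutation test). With the receptor background subtracted the ratio of Ybx1-KO replicate 3 was 0.0652, next to 0.0611 in replicate 2, and the difference between the groups turned to -0.051.

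The Rbbp4 to Rbbp7 ratio was 0.433, 0.769 and 0.744 in the control libraries and 0.712, 0.886 and 0.761 in the Ybx1-KO libraries. Control replicate 1 was low, through its high Rbbp7, and the other 5 libraries lay between 0.712 and 0.886. The log2 ratio was higher by 0.32 in Ybx1-KO NPCs (standard error 0.284, p = 0.5, exact permutation test), and by 0.050 when control replicate 1 was left out.

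Both ratios to Eed were lower in Ybx1-KO NPCs. The Ezh2 to Eed ratio was 3.39, 2.59 and 2.33 in the control libraries and 1.67, 2.32 and 2.11 in the Ybx1-KO libraries. The groups did not overlap, but control replicate 3 and Ybx1-KO replicate 2 were nearly equal. The difference on the log2 scale was -0.44 (standard error 0.213, p = 0.1, exact permutation test). The Suz12 to Eed ratio was 2.64, 2.26 and 1.74 in control and 1.33, 1.62 and 1.98 in Ybx1-KO NPCs, with overlap and a difference of -0.43 on the log2 scale (standard error 0.242, p = 0.2, exact permutation test). The differences were -0.29 for Ezh2 to Eed without control replicate 1 and -0.28 for Suz12 to Eed without Ybx1-KO replicate 1. Over the 4 ratios, the adjusted p was 0.4 for both ratios to Eed and 0.5 for the other 2.

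**Figure D3:**
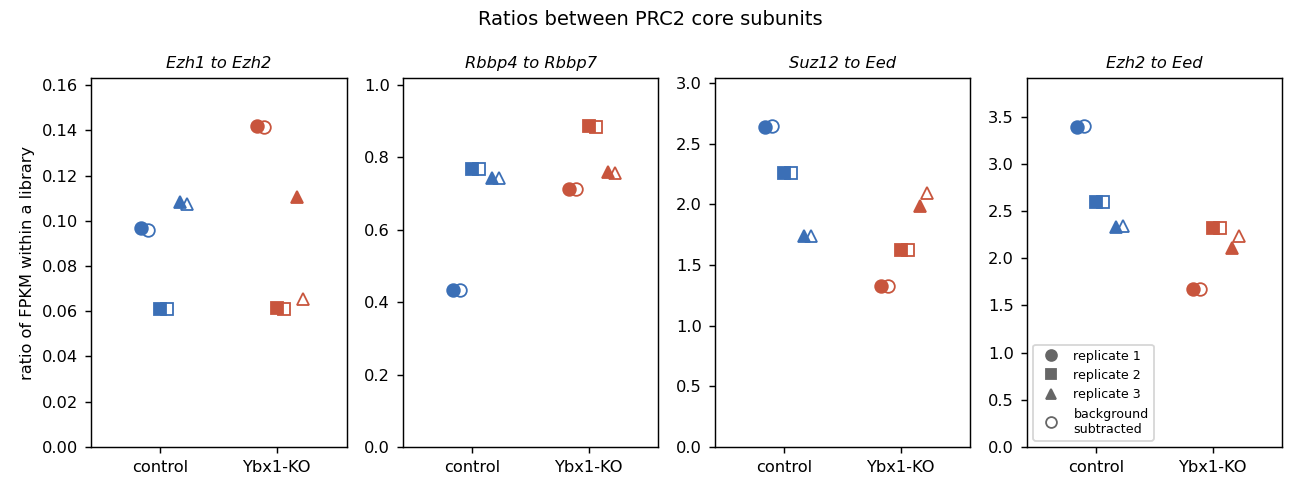
Ratio of FPKM between subunits within each library, for control (blue) and Ybx1-KO (red), with circles, squares and triangles for replicates 1, 2 and 3 and open symbols after subtraction of the receptor background. The open triangle for Ezh1 to Ezh2 in Ybx1-KO replicate 3 sits at 0.0652 against 0.111 for the filled one, those of the ratios of Suz12 and Ezh2 to Eed in that library sit at 2.09 and 2.24 against 1.98 and 2.11, and the other open symbols lie close to their filled ones.

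The composition of the core transcripts is likewise free of library scaling, and its use was chosen after values had been seen. The summed FPKM of the 6 genes averaged 94.3 ± 12.3 (SD, n = 3) for control NPCs, against 95.1 ± 25.5 (SD, n = 3) for Ybx1-KO NPCs. Of this sum, Ezh2 made up 22.3%, 23.4% and 21.3% in the control libraries and 15.2%, 20.1% and 15.7% in the Ybx1-KO libraries. Suz12 made up 17.4%, 20.4% and 15.9% in control and 12.1%, 14.1% and 14.7% in Ybx1-KO NPCs. Rbbp4 went the other way, with 15.6%, 19.9% and 21.9% in control and 25.5%, 26.3% and 26.1% in Ybx1-KO NPCs. For each of these 3 genes the groups did not overlap (p = 0.1 each, two-sided exact permutation test, 0.2 after adjustment over the 6 shares). The shares of Eed, 8.25 ± 1.45% and 8.40 ± 0.881% (SD, n = 3), Ezh1 and Rbbp7 overlapped. Shares of a sum are tied to each other, since a larger share of one gene lowers those of the rest.

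**Figure D4:**
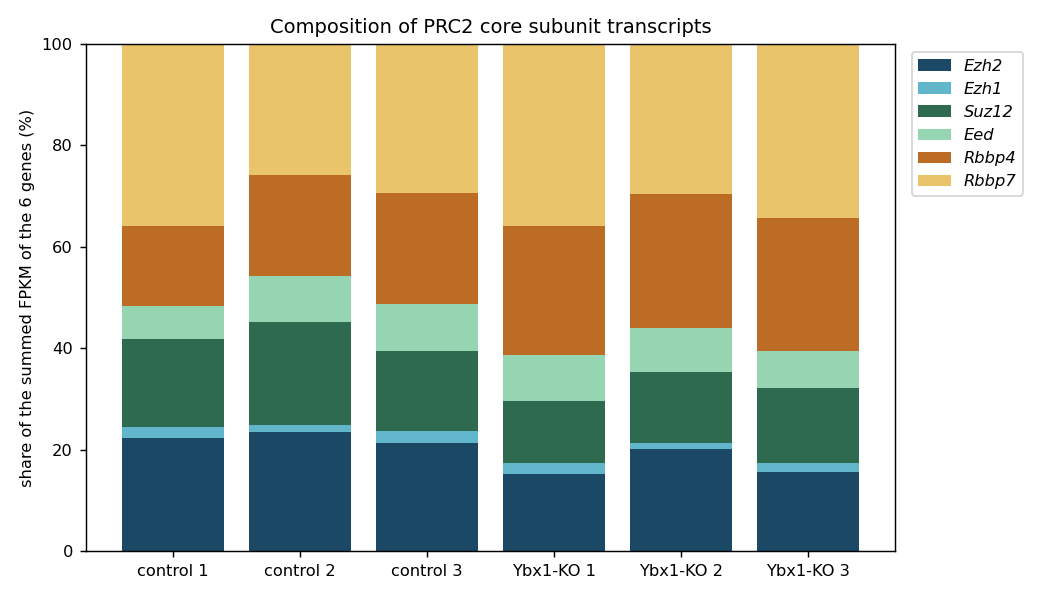
Share of each subunit in the summed FPKM of the 6 genes, in percent, with 1 bar for each library. The Ezh2 part is 21.3 to 23.4% in the control and 15.2 to 20.1% in the Ybx1-KO bars, and the Rbbp4 part is 15.6 to 21.9% and 25.5 to 26.3%.

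Across the 6 libraries, Ezh2 and Suz12 had the most similar profiles of the 15 pairs of members (Pearson r of log2 CPM 0.93), and Suz12 and Rbbp4 the least similar (r = -0.29). Among 9152 protein coding genes with a mean above 10 CPM, those most like Ezh2 included Smim13 (r = 0.998) and Kdm1a, a histone demethylase (r = 0.996). Those most like Suz12 were Senp6, a SUMO protease (r = 0.998), Nckap1 (r = 0.996) and Zcchc6 (r = 0.993). Rbbp4 was closest to Fam214b, Tigd5 and Cdt1, a replication licensing factor (r from 0.994 to 0.996), and Eed to Sgsm2, Tspyl4 and Prepl (r from 0.991 to 0.993). The closest genes of Ezh1 were Chmp3, Psma1 and Ptpn2 (r from 0.990 to 0.994), and those of Rbbp7 were Timm44, Dus3l and Rsrp1 (r from 0.973 to 0.984). The genes named are the top of 9152, over only 6 points. The number of genes with r above 0.95 ran from 7 for Rbbp7 to 137 for Ezh2. The points share depth, scaling and genotype, so these values describe the libraries only.

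The other genes of the Polycomb system showed no common direction. Of 8 tested genes for PRC2 accessory subunits, which guide the core to chromatin, 4 were higher and 4 lower in Ybx1-KO NPCs, and 0 passed the adjusted threshold in edgeR. Epop had 1.98, 4.24 and 3.70 CPM in control against 12.9, 10.2 and 7.55 CPM in Ybx1-KO NPCs, with no overlap (a log2 difference of 1.63, unadjusted p = 0.0188, adjusted p = 0.433 in edgeR). Lcorl was lower in all Ybx1-KO libraries, with 62.4 to 121 CPM in control and 43.4 to 62.1 CPM in Ybx1-KO NPCs. Of 14 tested PRC1 genes, whose complex binds the mark of PRC2, 7 were higher and 7 lower with 0 called. Bmi1 had 74.7 to 96.4 CPM in control and 28.5 to 60.6 CPM in Ybx1-KO NPCs, and Cbx8 had 4.98 to 7.35 and 8.25 to 13.2 CPM. Of the 2 demethylase genes of the same lysine 1 was higher and 1 lower. Kdm6a had 72.3 to 78.0 CPM in control and 30.6 to 58.8 CPM in Ybx1-KO NPCs. The part of sex in the levels of the genes named here and below was not tested. The medians of the accessory and PRC1 lists were 0.016 and -0.028, and both changed sign without Ybx1-KO replicate 3, to -0.10 and 0.18.

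Rbbp4 and Rbbp7 also belong to histone deacetylase, chromatin assembly and remodelling complexes. Of 27 genes of these complexes, all of them tested, 9 were higher and 18 lower in Ybx1-KO NPCs and edgeR called 0 (median difference -0.18 on the log2 scale, where 61.3% of all genes tested were higher, with a median of 0.31). Without Ybx1-KO replicate 3 the median was -0.064 for this list and -0.066 for all genes tested. Chaf1a, of the CAF-1 complex that assembles histones behind the replication fork, had 10.6, 16.3 and 14.3 CPM in control and 25.5, 29.8 and 22.9 CPM in Ybx1-KO NPCs (log2 fold change 0.92, unadjusted p = 0.0308, adjusted p = 0.443 in edgeR). Smarca1, a remodelling ATPase, and Sap18, of a deacetylase complex, were lower in all Ybx1-KO libraries. Of 20 S phase genes, 19 had a positive log2 fold change with a median of 0.59, and 8 lay without overlap above control, against 4.99% of all genes tested. Cdc6 had 6.09, 14.3 and 7.55 CPM in control and 25.2, 18.3 and 28.8 CPM in Ybx1-KO NPCs, and Mcm3, of the replicative helicase, had 26.0 to 47.8 and 66.6 to 77.0 CPM. Of 20 G2 and mitosis genes 15 were positive, and their median of 0.32 was close to the 0.31 of all genes tested. Among them were Cdc20 with 12.3 to 16.9 CPM in control and 25.7 to 80.2 CPM in Ybx1-KO NPCs, and Aurka with 10.4 to 13.2 and 22.4 to 37.7 CPM. None of the S phase, G2 or mitosis genes passed the adjusted threshold in edgeR, 8 and 4 of them had an unadjusted p below 0.05, and without Ybx1-KO replicate 3 the medians were 0.78 and 0.33, against -0.066 for all genes tested. DESeq2 called 1 gene of each list, against 1% of all genes tested, Mcm5 and Aurka (named after their values were seen), and limma-voom called 0. In the Polycomb lists and the list of other complexes, limma-voom and DESeq2 also called 0. In edgeR an unadjusted p below 0.05 was given to 1 of 8 accessory genes, 1 of 14 PRC1 genes and 1 of 27 genes of the other complexes. Of all genes tested, 11.2% had such a p in edgeR, 6.96% higher and 4.27% lower in Ybx1-KO NPCs.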

How the data were processed

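Libraries were made with a stranded total RNA kit and sequenced in paired-end mode. The authors mapped the read pairs and used HTSeq 0.6.1p1 with GENCODE genes for counting. The deposited values are raw, unnormalized counts, keyed by gene symbol, in a separate file for each library. The submitters' processing notes list mm10 and GRCm38.p5. The aligner, the strand setting and the sequencer of each library are not given in the sources used here. The counter's tallies outside genes were kept out of library sizes.

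Exon unions and coordinates came from GENCODE M21 (GRCm38), which matched 92.8% of 51733 symbols, 47624 by symbol and 359 by an older one. Genes with a mean above 1 FPKM in either group were tested with edgeR 4.0.16 (TMM, quasi-likelihood, Benjamini-Hochberg over all 21330 genes) in R 4.3.3, and a call needed both an adjusted p under 0.05 and a change of over 1.5 times. The alternatives were limma-voom (limma 3.58.1), DESeq2 1.42.0, 3 scalings, 2 filters, protein coding genes alone, background subtraction and leaving out each library. Intervals of edgeR are the estimate ± the t quantile times the standard error. At these depths, 3 counts correspond to 0.126 to 0.632 CPM. In simulated counts the edgeR step recovered large changes at a small spread between libraries, but not at the spread shared by all genes. The coefficients of variation of the 6 subunits, 0.330 to 0.426, were not simulated. The simulation therefore cannot say how often a change in a subunit would be missed. A missing call does not show that a gene is unchanged.

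The members and lists were chosen with earlier results of these data known. Genes named were the members, Ybx1, the 3 genes most like each member (1 of them is not reported here), and for each list the 2 genes of lowest p in each direction without overlap between the groups. The use of the longest transcript, shares of the summed FPKM and overlap under other scalings were chosen after seeing the data, as were the genes that overlap a member. Figures were drawn with matplotlib 3.10.9.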

Additional observations from a re-analysis of the deposited data

Results flagged for a closer look

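The 1729 genes of olfactory, vomeronasal and taste receptors are not subunits, and entered the comparisons of the subunits only as the background subtracted in one alternative. Together they took 4554 CPM in Ybx1-KO replicate 3 and at most 95.9 CPM in a control. Ybx1-KO replicates 1 and 2 had 25.3 and 22.5 CPM, so 1 of 3 Ybx1-KO libraries stood above the controls. The estimate from these genes per kilobase of exon equals 43.9% of the Ezh1 count of that library, 10.3% of the Eed count and between 2.22 and 5.18% of the counts of Ezh2, Suz12, Rbbp4 and Rbbp7. Its cause was not tested.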

How the results depend on the processing

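None of the 6 subunits was called under any of 15 alternatives, although DESeq2 called 214 genes of all tested, the fit without a filter on low counts 193, and the fits without 1 library between 0 and 419 (the last without Ybx1-KO replicate 2). Ezh2, Suz12 and Ezh1 kept a negative and Rbbp4 a positive log2 fold change in all 15, but leaving out 1 library moved Ezh1 to between -0.76 (without Ybx1-KO replicate 1) and -0.13 (without Ybx1-KO replicate 2) and Rbbp4 to between 0.14 (without Ybx1-KO replicate 1) and 0.43 (without Ybx1-KO replicate 3). Relative to the median of all genes, which moved from 0.31 to 0.51 with scaling by total count, to 0.40 with RLE scaling, to 0.70 without a filter on low counts and to -0.066 without Ybx1-KO replicate 3, Ezh2 lay between -1.34 and -0.31 and Suz12 between -1.37 and -0.41, the low ends without the filter and the high ends without that library. The sign of Rbbp7 turned with DESeq2 (0.058), RLE (0.058), upper quartile (0.022) and total count scaling (0.15), with protein coding genes alone (0.041) and with the receptor background subtracted (0.029), and ran from -0.28 to 0.18 when 1 library was left out. The sign of Eed turned with total count scaling (0.058) and ran from -0.34 to 0.11 when 1 library was left out. The Ezh1 to Ezh2 difference turned to -0.051 with the background subtracted and ran from -0.062 without Ybx1-KO replicate 1 to 0.54 when 1 library was left out. The other 3 ratios kept their direction under all 9 alternatives, in size from -0.56 to -0.29 for Ezh2 to Eed, from -0.59 to -0.28 for Suz12 to Eed and from 0.050 to 0.46 for Rbbp4 to Rbbp7. The cause was not tested. At an unadjusted p below 0.05, edgeR gave 1484 genes higher and 910 lower, against 1755 and 503 with total count scaling and 756 and 899 by limma-voom. No paired analysis was possible because the titles of control and Ybx1-KO libraries share no number that ties one to the other. With 3 libraries a group, the permutation test cannot go below 0.1.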

Other observations

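Several annotated genes overlap a subunit on the opposite strand. Counts of antisense partners are uncertain here, since the strand setting of the counting is not given in the sources used here. Gm26625, a long noncoding RNA within Ezh2, measured 24.2, 42.8 and 40.8 CPM in controls 1 to 3 against 6.03, 27 and 20.4 CPM in Ybx1-KO replicates 1 to 3, with overlap (log2 fold change -1.01, adjusted p = 0.446 in edgeR). Gm26563, within Suz12, had 12.9, 17.9 and 11.3 CPM in control and 6.47, 18.6 and 8.95 CPM in Ybx1-KO NPCs. Gm26722, within Rbbp4, had 18.9 to 20.4 CPM in control and 81.6, 21 and 38.9 CPM in Ybx1-KO NPCs, all above control (log2 fold change 1.25, adjusted p = 0.425 in edgeR). Txlng, a coding gene whose end overlaps that of Rbbp7, had 41.8, 31.0 and 18.2 CPM in control and 14.6, 16.7 and 16.5 CPM in Ybx1-KO NPCs, all below control (log2 fold change -0.93, adjusted p = 0.443 in edgeR). Like Rbbp7 it lies on the X chromosome, and the part of sex in its level was not tested.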
